A study of Homo sapiens with 24 samples.

Results

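The mRNAs described here encode 38 hnRNP and SR splicing proteins. They were chosen by gene family (HNRNPA0 to HNRNPUL2, SRSF1 to SRSF11, TRA2A, TRA2B, PTBP1, PTBP3, SFPQ, NONO and SYNCRIP) together with the condition that no library held a count of 0. All 38 met that condition, as did 12058 of the 54583 genes in the table. Earlier results of these data were known when the members were chosen. They were measured by polysome profiling in PANC-1, an established human cell line derived from a pancreatic ductal tumour. Cells on 12 plates were kept for 6 h with the solvent DMSO, with 40 µM CID661578, which the study identified as a ligand of the kinase MNK2, or with 5 µM cercosporamide, an inhibitor of MNK2 kinase activity. The doses of the compounds differed, all plates were of the same single line, and the DMSO plates served as the control for each compound. Each treatment had 4 biological replicates, and from each plate total cytosolic RNA and RNA bound to more than 3 ribosomes were sequenced, which gave 24 libraries. The question put to these mRNAs is whether either compound changed how much of each is on polysomes. The HNRNPA1 and SFPQ proteins are themselves substrates of MNK kinases. A link from this to the polysome share of their own mRNAs was not tested.

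hnRNP proteins coat nascent transcripts in the nucleus, and many of them repress the use of nearby splice sites. SR proteins carry domains rich in arginine and serine whose phosphorylation governs their binding and location, and they mostly promote the inclusion of the exons they bind. Many genes of both families regulate their own mRNA through exons that bring in premature stop codons, and counts per gene do not separate those isoforms from the coding ones. In such bulk samples fewer cells that express a gene and less of its RNA per cell cannot be told apart.

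Between 9268041 and 12184749 reads fell on genes in 23 libraries, and 1592459 in the last one (cercosporamide, polysome RNA, replicate 4). The shallow library held 1 read of HNRNPUL1, 4 of HNRNPUL2 and 5 of SRSF9. The epithelial keratins KRT8, KRT18 and KRT19 were high in every library (lowest value 676.6 CPM, counts scaled to the effective library size, for KRT19), as was VIM. Of the markers of other cell types, PRSS1, INS, CHGA, CDH5, COL1A2, DCN, CD3E and PTPRC were at 0 in all 24 libraries. CD68, one of 3 immune markers looked at, lay between 305.8 and 853.9 CPM, and the other 2 were at 0. The rest of these markers reached at most 6.42 CPM (COL1A1). The 38 members took 0.246 to 0.482% of the counts in total RNA and 0.485 to 0.941% in polysome RNA.

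The promoters are shown because a short sequence recurs close to the start of transcription in 9 of the 34 members with a matched promoter. RefSeq start sites (GRCh38.p14) were matched for 34 members. HNRNPA1, SFPQ, SRSF2 and TRA2A were not matched. Each window below holds 25 bases before and 25 bases from the start onward, 5′ to 3′ on the strand of the gene, with capitals marking CCATTT or its reverse complement AAATGG. The first 4 belong to mRNAs whose polysome share rose with cercosporamide, the next 4 to mRNAs that did not pass that test, and the last 3 to risen mRNAs without the letters in the window.
HNRNPR (chr1:23344260-23344309, minus strand): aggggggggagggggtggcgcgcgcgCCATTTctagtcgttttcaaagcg
SRSF1 (chr17:58007222-58007271, minus strand): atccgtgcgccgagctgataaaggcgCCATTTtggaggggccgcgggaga
HNRNPA3 (chr2:177212769-177212818, plus strand): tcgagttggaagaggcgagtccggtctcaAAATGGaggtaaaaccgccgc
HNRNPH1, one of 4 starts (chr5:179623377-179623426, minus strand): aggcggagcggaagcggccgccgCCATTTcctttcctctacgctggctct
SRSF3 (chr6:36594337-36594386, plus strand): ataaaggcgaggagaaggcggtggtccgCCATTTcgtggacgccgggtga
HNRNPD (chr4:82373967-82374016, minus strand): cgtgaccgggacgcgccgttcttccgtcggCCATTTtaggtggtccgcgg
HNRNPC (chr14:21269418-21269467, minus strand): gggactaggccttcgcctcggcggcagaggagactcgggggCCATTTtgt
HNRNPUL1, one of 3 starts (chr19:41264347-41264396, plus strand): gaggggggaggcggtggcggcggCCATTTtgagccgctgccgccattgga
SYNCRIP (chr6:85643846-85643895, minus strand): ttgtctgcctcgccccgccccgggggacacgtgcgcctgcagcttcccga
HNRNPH2 (chrX:101408197-101408246, plus strand): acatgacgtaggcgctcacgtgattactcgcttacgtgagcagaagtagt
HNRNPK, one of 2 starts (chr9:83980191-83980240, minus strand): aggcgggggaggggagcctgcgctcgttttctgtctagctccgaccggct

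The letters were chosen after the sequences had been seen, and a match is a description and not a binding site. The canonical HNRNPA3 transcript has a 5′ UTR of 6 bases, so the match printed for that gene can overlap its start codon. Within the 300 bases from 250 before to 50 after a start, 17 of 34 members held them on either strand, against 15.5% of the 8546 tested genes with a promoter and 17.9% of all 27305 genes with one. Within 20 bases before to 50 after a start, 9 members (26.5%) held them, against 4.6% of the tested genes and 4.37% of all genes. By treatment response, 10 of the 16 matched members that rose with cercosporamide (62.5%) and 7 of the 18 others (38.9%) had the letters in the 300 bases.

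In cells kept with DMSO the members covered a wide range of abundance. HNRNPC, which binds uridine tracts and helps package nascent RNA, had the highest level per kilobase of transcript in total RNA (336.5 CPM per kilobase, from 1065 ± 179.5 CPM, SD, n = 4). HNRNPK, which binds cytidine-rich RNA, followed at 168.9. HNRNPF and NONO came next at 90.1 and 88.1, and their CPM overlapped within 1 SD of each other (232 ± 72.8 and 234 ± 65.5). The lowest levels were those of HNRNPH2 (1.17 per kilobase, 2.69 ± 1.53 CPM) and HNRNPUL2 (0.378 per kilobase, 1.97 ± 0.49 CPM). These 2 genes also had the lowest counts of all members, with medians over the libraries of 26.5 and 29.5 reads.

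Relative to the average gene, most of these mRNAs were enriched in polysome RNA with DMSO. The polysome to total ratio in DMSO was tested in edgeR, with the average gene at a log2 ratio of about 0. Calls took the thresholds of the study (Benjamini-Hochberg adjusted p below 0.15 over all genes, difference above 1.2-fold). By this rule 27 of 38 members were higher in polysome RNA, where 26.4% of all genes were, and 1 was lower, where 29.6% of all genes were. The median log2 ratio of the members was 0.44, against −0.01 for all genes. Leaving out replicate 1 reduced the 27 to 18. Scaling each fraction on its own moved the median of all genes up by 0.26 and gave 29 higher members, with their median at 0.72.

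HNRNPUL2, an hnRNP U-like protein, had the highest ratio in DMSO, with log2 values of 2.13, 1.64, 0.91 and 1.23 in the 4 replicates (fitted 1.46 ± 0.35, SE, adjusted p = 0.0017). HNRNPU, a scaffold attachment factor of the nuclear matrix, followed with 1.58, 0.79, 0.57 and 1.52 (fitted 1.12 ± 0.18), and HNRNPM, which binds GU-rich introns, with 1.34, 1.35, 0.87 and 0.91 (fitted 1.11 ± 0.20). These ratios were above 0 in every replicate, and the estimates differed from each other by less than 1 SE of HNRNPUL2. SRSF8, a close relative of SRSF2, was the only member called lower, at −0.28, −1.07, −0.20 and −0.57 (fitted −0.53 ± 0.27, adjusted p = 0.111), and it was no longer called when any single replicate was left out. NONO and HNRNPDL had fitted ratios of −0.06 ± 0.17 and −0.01 ± 0.18, which did not pass the test.

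With cercosporamide, 19 of the 38 mRNAs rose in translational efficiency (the change of polysome RNA relative to total RNA from the same plates) and none fell in edgeR. Over all genes tested, 15.8% rose and 12.6% fell by the same rule. The member estimates ranged from −0.60 to 2.72 on the log2 scale, with a median of 0.51 against 0.00 for all genes, and 30 of 38 were above 0. The member median was above 0 in each replicate, at 0.50, 0.71, 0.39 and 0.73. Of the 19 called mRNAs, 18 were above DMSO in all 4 replicates. The polysome to total ratios with cercosporamide lay above those with DMSO in every library, without overlap, for 17 of 38 members, where this held for 10.9% of all genes. For no member did they lie wholly below, where 7.99% of all genes did.

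The rises are given by role, beside the 15.8% of all genes that rose. All 4 members of the F and H group rose, as did 4 of 7 in the A/B and D group, 3 of 5 in the Q, R and U group, 2 of 5 in the C, K, L and M group, 3 of 11 SR proteins, 1 of 2 TRA2 proteins (TRA2A), 1 of 2 polypyrimidine tract binding proteins (PTBP3) and 1 of 2 DBHS proteins (SFPQ). The medians of these groups were 1.18, 0.56, 1.14, 0.32, 0.41, 0.48, 0.20 and 0.64 in the same order. The differences between the groups were not tested, and most groups are too small to show one.

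**Figure D1:**
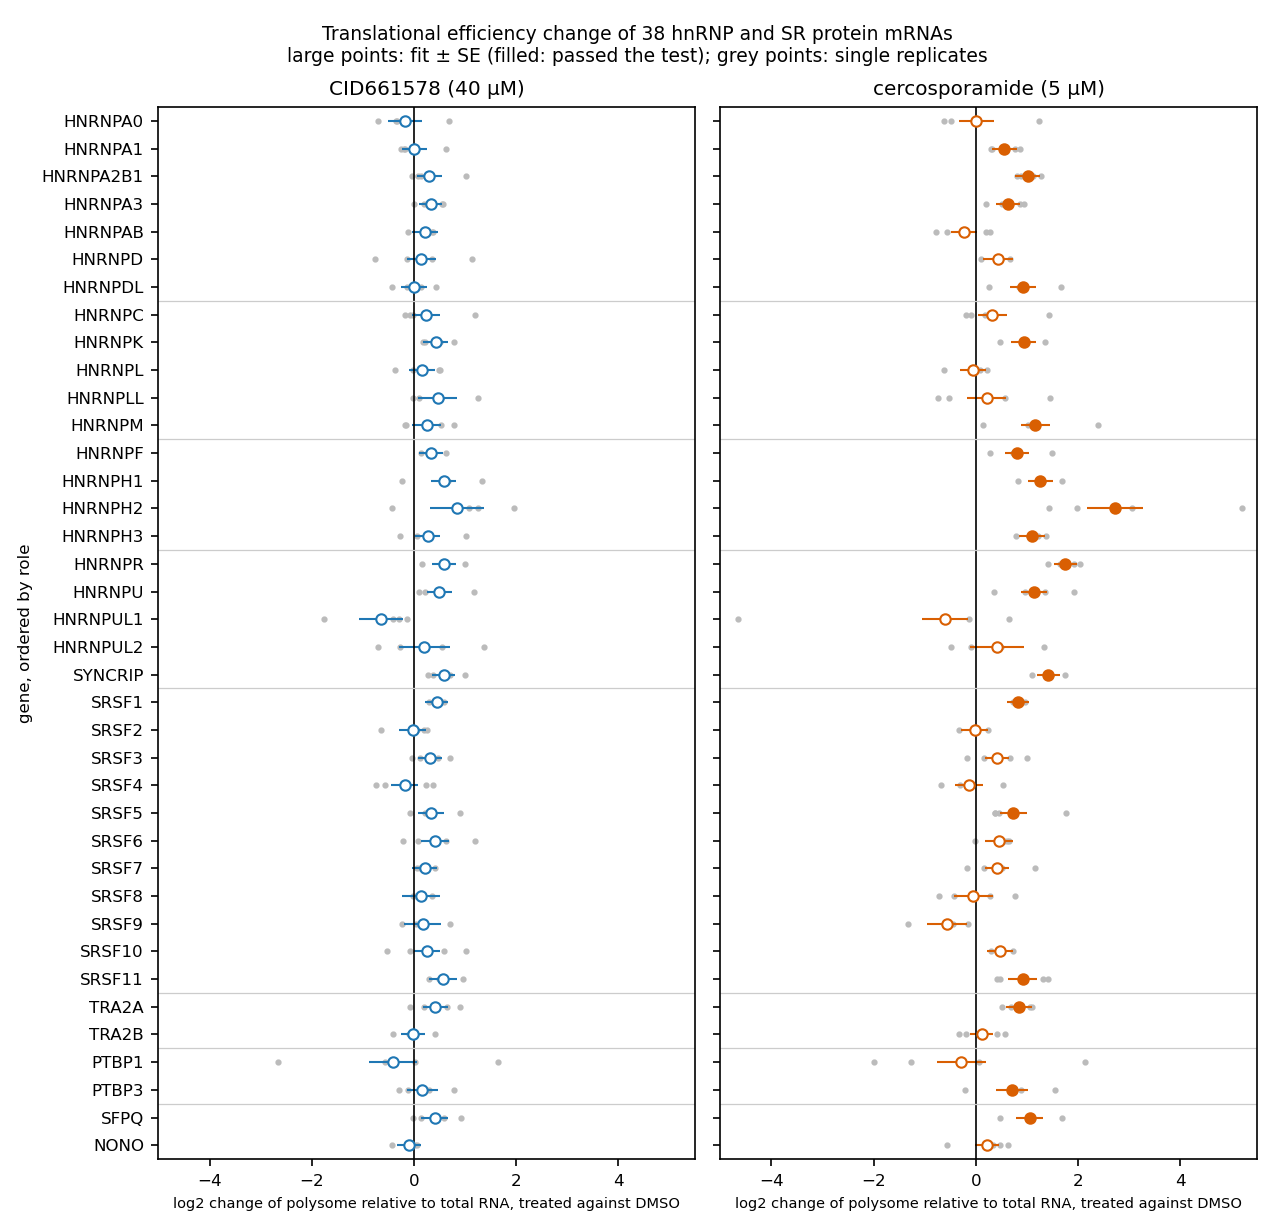
Log2 change of polysome relative to total RNA against DMSO for the 38 members, ordered by role, with CID661578 at 40 µM on the left and cercosporamide at 5 µM on the right. Large points are fitted changes with their SE, filled where the test was passed, and grey points are single replicates; 19 points are filled on the right and none on the left.

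HNRNPH2 had the largest estimate, and its counts were among the lowest. hnRNP H proteins bind runs of guanosine in exons and introns. The log2 polysome to total ratio of HNRNPH2 was 0.76, −1.57, 0.25 and 0.13 in the DMSO replicates and 2.19, 3.64, 2.23 and 3.18 with cercosporamide. Every cercosporamide value was above every DMSO value, and the low second DMSO replicate rests on 5 polysome reads. The cercosporamide ratios of HNRNPH2 rest on 11, 6, 23 and 17 reads in total RNA. The fitted rise was 2.72 ± 0.54 (adjusted p = 0.0017), and without replicate 2 it was 2.17. The gene lies on chromosome X (101408222 to 101414133, plus strand, hg38) inside the readthrough gene RPL36A-HNRNPH2, whose median count was 0.

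The paralogue HNRNPH1 (chromosome 5, 179614178 to 179634784, minus strand) rested on far more reads. Its polysome level was 160.0, 64.8, 98.6 and 104 CPM in DMSO and 239, 155, 226 and 229 with cercosporamide, while its total RNA was 98.7, 69.1, 56.9 and 90.3 in DMSO and 83.0, 65.9, 55.8 and 61.9 with cercosporamide. Polysome RNA was thus higher within each replicate and total RNA lower in each. The fitted change in translational efficiency was 1.26 ± 0.25 (adjusted p = 0.0014). HNRNPH3 and HNRNPF, the other members of this group, rose by 1.10 ± 0.25 and 0.80 ± 0.24, with HNRNPF no longer called without replicate 2 (0.57, adjusted p = 0.23).

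HNRNPR and SYNCRIP (hnRNP Q) are closely related proteins that bind RNA in the nucleus and the cytoplasm. The log2 ratio of HNRNPR was 0.30, −0.18, 0.23 and 0.19 in DMSO, 0.46, 0.42, 0.82 and 1.18 with CID661578, and 1.95, 1.73, 1.65 and 2.22 with cercosporamide. The 3 treatments did not overlap. Its fitted rise with cercosporamide was 1.75 ± 0.23 (adjusted p = 5.5e-05), and polysome levels went from a mean of 109.8 ± 50.7 to 232 ± 50.3 CPM while total RNA went from 97.2 ± 38.8 to 62.8 ± 15.6 (SD, n = 4).

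SYNCRIP had ratios of 0.64, 0.02, 0.72 and 0.75 in DMSO and 2.03, 1.75, 1.81 and 2.22 with cercosporamide, again without overlap. The fitted rise was 1.42 ± 0.23 (adjusted p = 0.00032). HNRNPU, in the same group, rose by 1.14 ± 0.25, from the second highest ratio in DMSO. HNRNPUL1 and HNRNPUL2 did not pass, with estimates of −0.60 ± 0.45 and 0.41 ± 0.53. The last cercosporamide replicate of HNRNPUL1 stood at −4.67 against DMSO and rests on its single polysome read.

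SFPQ and NONO form a heterodimer in nuclear paraspeckles, and SFPQ is an MNK substrate. The log2 ratio of SFPQ (chromosome 1, 35176378 to 35193446, minus strand) was 1.204, 0.21, 0.70 and 0.96 in DMSO, 1.18, 0.80, 0.83 and 1.88 with CID661578 and 1.67, 1.27, 2.39 and 1.98 with cercosporamide. Every cercosporamide value was above every DMSO value. The fitted rise was 1.06 ± 0.26 (adjusted p = 0.0084), and it ranged from 0.82 to 1.25 when single replicates were left out. NONO had ratios of −0.34, −0.37, 0.55 and −0.07 in DMSO and 0.27, 0.11, −0.00 and 0.28 with cercosporamide, which overlapped (fitted 0.22 ± 0.23, adjusted p = 0.57).

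HNRNPA1, the other MNK substrate, represses splicing through silencer elements. Its polysome level was 219.8, 123, 324 and 274.0 CPM in DMSO and 276, 256, 353 and 345 with cercosporamide, with total RNA between 70.4 and 180.1 in DMSO and between 80.4 and 159 with cercosporamide. The log2 ratios were 1.27, 0.81, 0.85 and 1.10 in DMSO and 1.57, 1.67, 1.16 and 1.87 with cercosporamide, so that 1 cercosporamide value lay inside the DMSO range. The fitted rise of 0.56 ± 0.24 passed the test with an adjusted p of 0.124. It no longer passed in 10 alternatives, which include a stricter threshold of 0.05 and the analyses without replicate 1, 2 or 4 (0.64, 0.45 and 0.45, adjusted p = 0.16, 0.40 and 0.33), without the shallow library (0.42, adjusted p = 0.32) and with DESeq2 (0.49, adjusted p = 0.18).

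PTBP1, which represses exons flanked by pyrimidine tracts, varied widely between plates. Its ratio was −0.26, 0.93, 1.12 and 2.01 in DMSO and 1.88, −0.33, 1.18 and 0.02 with cercosporamide, and the groups overlapped. The fitted change was −0.29 ± 0.48 (adjusted p = 0.73). It was called lower, at −1.06 (adjusted p = 0.11), without replicate 1, and its estimate was above 0 without replicate 2 or 4.

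**Figure D2:**
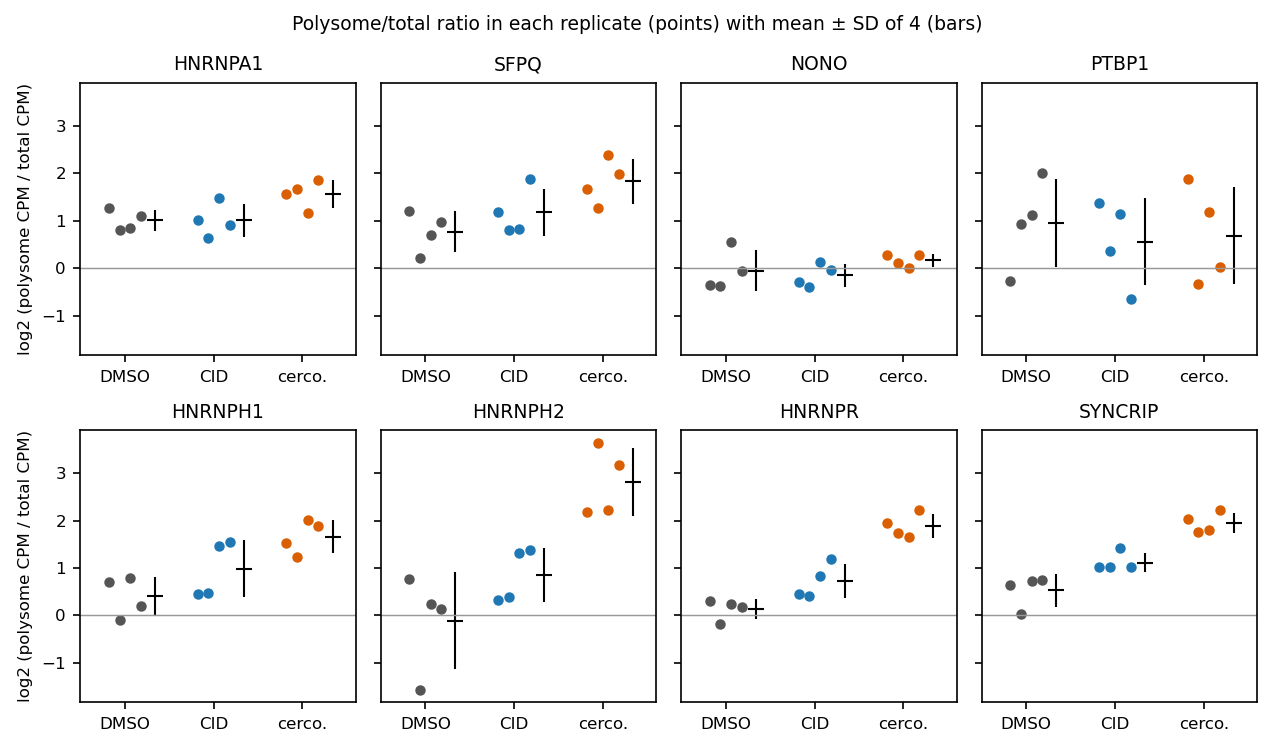
Log2 ratio of polysome to total CPM on each plate for 8 members, with DMSO, CID661578 (CID, 40 µM) and cercosporamide (cerco., 5 µM) along the axis; points are the 4 replicates and bars the mean ± SD. The cercosporamide points lie above all DMSO points for SFPQ, HNRNPH1, HNRNPH2, HNRNPR and SYNCRIP and overlap them for HNRNPA1, NONO and PTBP1.

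In polysome RNA alone, tested within the fraction at an adjusted p below 0.15 with no fold threshold, 20 members were higher and 2 lower with cercosporamide than with DMSO, where 18.3% and 13.8% of all genes were. HNRNPH2, SYNCRIP and HNRNPR rose most, by 1.99 ± 0.34, 1.23 ± 0.17 and 1.17 ± 0.18. SRSF9 fell, from 8.27, 10.5, 6.13 and 7.44 CPM in DMSO to 3.91, 4.63, 5.32 and 3.30 with cercosporamide (−0.86 ± 0.26, adjusted p = 0.026), and its groups did not overlap. SRSF4 fell by 0.46 ± 0.22 (adjusted p = 0.14), in 3 of 4 replicates. The call of SRSF4 was lost without the shallow library, without the replicate block, with the GC trend removed and without replicate 2, 3 or 4, and that of SRSF9 without replicate 2 (−0.73, adjusted p = 0.16). Neither of these SR proteins changed in translational efficiency by the test (−0.57 ± 0.39 and −0.13 ± 0.27). The count of 22 depended on the fit. It was 11 without replicate 2, and 8 when the replicate number was left out of the model.

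In total RNA no member passed the test with cercosporamide, where 0.29% of all genes rose and 0.0912% fell. Without adjustment 2 members fell at p below 0.05 in edgeR and none rose (4.67% and 6.61% of all genes), and DESeq2 called none. The median change in total RNA was −0.21, with 31 of 38 estimates below 0. All 19 mRNAs that rose in translational efficiency had a total estimate below 0 (−0.71 to −0.11) and a polysome estimate above 0 (0.32 to 1.99), and 18 of the 19 passed the test in polysome RNA on its own. The exception was SRSF5 (0.32 ± 0.19). For SRSF5 and HNRNPM the estimate in total RNA (−0.42 and −0.69) was larger in size than that in polysome RNA (0.32 and 0.50).

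**Figure D3:**
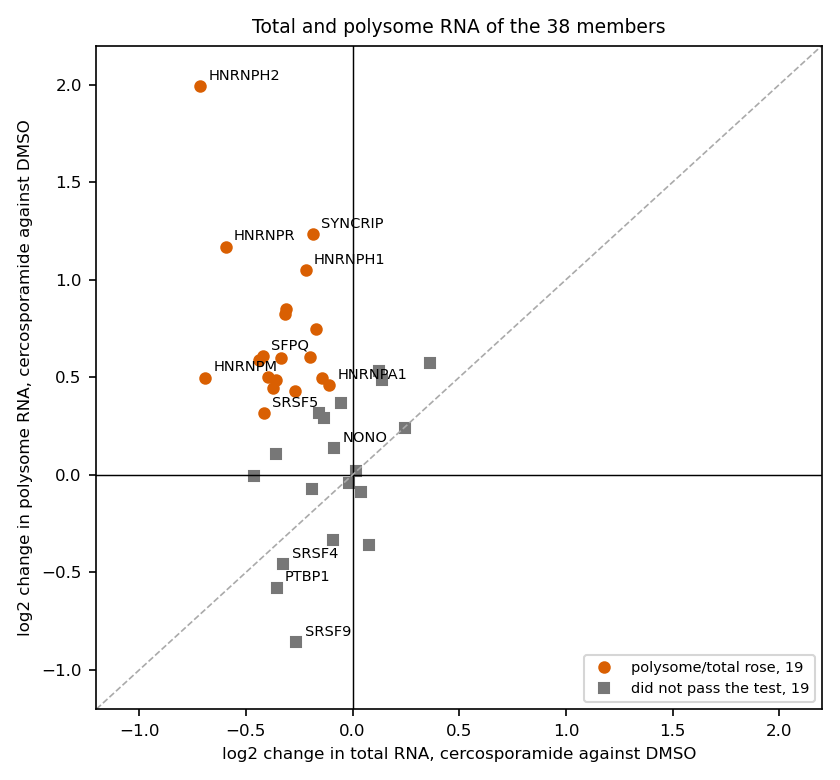
Log2 change in total RNA (horizontal) and in polysome RNA (vertical) with cercosporamide against DMSO, 1 point for each of the 38 members; the dashed line marks equal change. The 19 mRNAs that rose in translational efficiency (circles) all lie left of 0 and above 0, and SRSF9, SRSF4 and PTBP1 are the lowest 3 squares.

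Nuclear and mitochondrial RNA were compared between the cercosporamide and DMSO plates without a test. MALAT1, a nuclear RNA, lay between 16.9 and 49.2 CPM in DMSO total RNA and between 6.01 and 16.8 in cercosporamide total RNA, without overlap, while in polysome RNA the ranges overlapped (5.57 to 15.8 and 7.63 to 17.8). NEAT1, another nuclear RNA, overlapped in total RNA (0.723 to 2.59 and 0.493 to 1.92). In polysome RNA it was lower with cercosporamide, without overlap (1.76 to 3.35 CPM with DMSO and 0.659 to 1.46 with cercosporamide). Mitochondrial genes took 3.32 to 5.64% of the polysome reads with DMSO and 0.866 to 1.87% with cercosporamide, without overlap, and overlapping shares of total RNA (8.99 to 10.9% and 8.68 to 11.7%). Scaling without mitochondrial genes left the 19 calls as they were. The part of nuclear RNA in the results was not tested.

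With CID661578 no member passed the test for translational efficiency. By that rule 0.00829% of all genes rose and 0.199% fell. The study used another method, anota2seq, and reported many mRNAs changed in translation with both compounds. The absence of calls here holds for the edgeR test. Without adjustment 3 members rose at p below 0.05 in edgeR and none fell (4.92% and 3.95% of all genes), and DESeq2 called none. The estimates ranged from −0.65 to 0.85, with a median of 0.25 against 0.03 for all genes, and 30 of 38 were above 0. The member medians of the replicates were −0.01, 0.25, 0.31 and 0.44. The ratio was above DMSO in every library for HNRNPR, SRSF1 and SYNCRIP, 3 of 38 members, where this held for 2.74% of all genes.

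HNRNPR and SYNCRIP had the lowest adjusted p with CID661578, at estimates of 0.58 ± 0.23 for both (adjusted p = 0.49). SFPQ stood at 0.40 ± 0.26, HNRNPA1 at 0.00 ± 0.24, NONO at −0.10 ± 0.23 and PTBP1 at −0.40 ± 0.47. The PTBP1 replicates ran from −2.66 to 1.65, the widest spread among these 6. HNRNPH1, at 0.58 ± 0.25, was called only when replicate 1 was left out (0.86, adjusted p = 0.149).

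The fractions on their own gave no call either. In total RNA no member passed with CID661578, where 0.315% of all genes rose and 0.133% fell. Without adjustment 1 member fell in edgeR and none rose (3.52% and 3.65% of all genes), and DESeq2 called none. In polysome RNA no member passed, where 6.16% of all genes rose and 3.96% fell. Without adjustment 1 rose and none fell in edgeR (10.7% and 8.66% of all genes). HNRNPH1, with 0.48 ± 0.18 and an adjusted p of 0.151, lay just outside the threshold, and DESeq2 called it (0.47, adjusted p = 0.12).

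The difference between the compounds, 40 µM CID661578 against 5 µM cercosporamide, was tested in the fit of all 24 libraries. No plate received both compounds. The change in translational efficiency was smaller with CID661578 for 10 members and larger for none, where 7.57% of all genes were lower and 7.93% higher. HNRNPH2 differed by −1.87 ± 0.54 (adjusted p = 0.039), HNRNPR by −1.17 ± 0.23 (adjusted p = 0.0074), HNRNPDL by −0.92 ± 0.25 (adjusted p = 0.032) and HNRNPM by −0.91 ± 0.29 (adjusted p = 0.057). For these 4 the sign was the same in all 4 replicates. The other 6 were SYNCRIP, HNRNPH3, HNRNPA2B1, HNRNPH1, SFPQ and HNRNPU, between −0.84 and −0.65. The call of SFPQ (adjusted p = 0.142) was lost with DESeq2, without the shallow library and without replicate 1, 2 or 3, and without replicate 3 the difference was −0.36 (adjusted p = 0.49). The difference did not pass for HNRNPA1 (−0.55 ± 0.24, adjusted p = 0.18), NONO (−0.32 ± 0.23) or PTBP1 (−0.11 ± 0.48).

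No SR or TRA2 protein was among the 10. With 7.57% of all genes lower, these families are too small to read a result from that absence. SRSF9 was the single member whose ratios with CID661578 lay wholly above those with cercosporamide, where 6.2% of all genes did. For 6 members the ratios with CID661578 lay wholly below, where 5.07% of all genes did. The number of members called depended on the plates. It was 3 without replicate 1, 2 without replicate 2, 7 without replicate 3, 8 without replicate 4 and 6 without the shallow library, where 5.41% of all genes were lower.

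Base composition moved with these changes, among the members and among all genes. The members had a median transcript GC content of 42.0%, against 47.6% for the 10084 protein-coding genes tested (GENCODE v44 canonical transcripts), and their 3′ UTRs one of 34.6% against 41.6%. The 19 mRNAs that rose with cercosporamide had a median of 41.6% over the transcript and 59.7% in the 5′ UTR, and the other 19 members 45.1% and 71.0%. Across the members, Pearson's r between the change with cercosporamide and GC content was −0.49 for the transcript (n = 38) and −0.64 for the 5′ UTR (n = 37). Across all protein-coding genes these values were −0.55 and −0.26. The genes share the same libraries and are not independent points. With CID661578 the values for the members were −0.55 and −0.39. For both compounds the study reported low 5′ UTR GC content in mRNAs with raised translation. It reported high 5′ UTR GC content in those with lowered translation.

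When the trend of each library's counts with GC content was removed before the fit, 10 of the 19 mRNAs were still called with cercosporamide, where 8.93% of all genes rose, and the member median fell from 0.51 to 0.17. Those 10 were HNRNPDL, HNRNPF, HNRNPH1, HNRNPH2, HNRNPH3, HNRNPM, HNRNPR, HNRNPU, SFPQ and SYNCRIP. HNRNPH2 stood at 2.34, SFPQ at 1.14, HNRNPR at 0.93, HNRNPH1 at 0.93 and SYNCRIP at 0.90 in this fit, while HNRNPA1 stood at 0.20 and HNRNPA3 and PTBP3 at −0.09 each. All 3 SR proteins and TRA2A were no longer called. The median with CID661578 fell to 0.06. In this fit Pearson's r between the change with cercosporamide and transcript GC content was 0.09 for the members and −0.02 for all protein-coding genes. For the 5′ UTR it was −0.50 and −0.10. Whether the trend with GC content came from the libraries or from the cells cannot be told apart here.

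**Figure D4:**
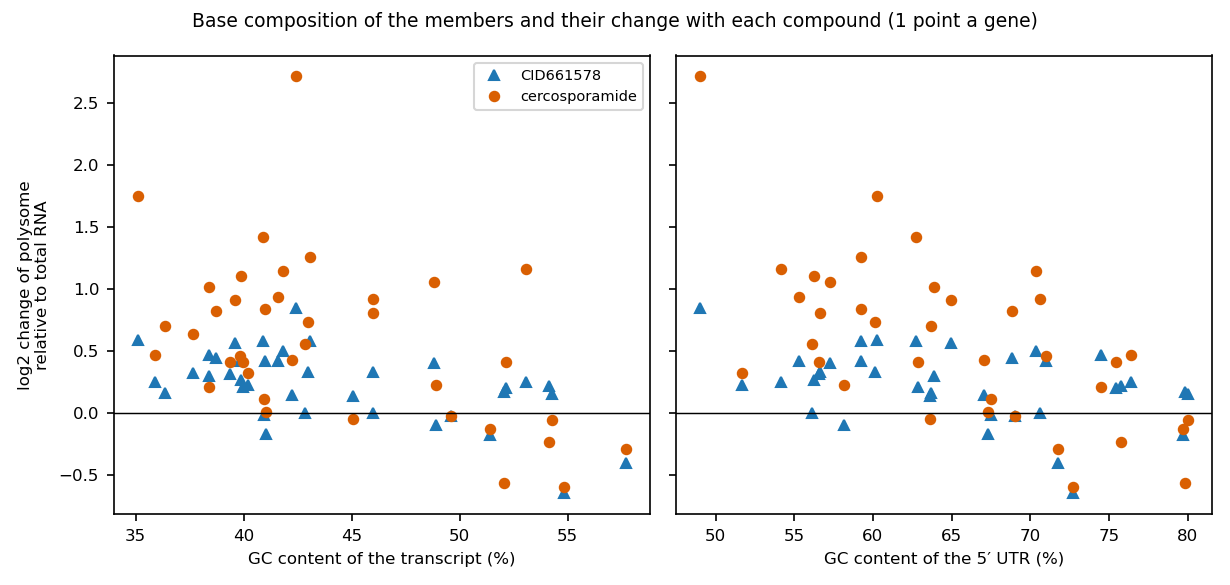
Log2 change of polysome relative to total RNA for the members (vertical) against the GC content of the canonical transcript (left) and of its 5′ UTR (right), with triangles for CID661578 and circles for cercosporamide. Changes tend to be lower at higher GC content, and HNRNPH2 (circle at 2.72) has the 5′ UTR with the lowest GC content.

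Reads of several members could have been shared with other genes, since the authors' counting let a read that aligned to several places count at every one. Named copies exist for 24 members, and for 8 of these at least 1 copy was itself tested. The copies of HNRNPA1 together held 224% of the reads counted for HNRNPA1 (median over libraries), those of HNRNPC 29.0% and those of HNRNPA3 27.6%. The largest HNRNPA1 copies, HNRNPA1P10, HNRNPA1P48 and HNRNPA1P7, had changes with cercosporamide of 0.51, 0.54 and 0.45, close to the 0.56 of HNRNPA1 itself, and did not pass the test, while the copy HNRNPA1P4 did (0.70, adjusted p = 0.095). RefSeq places another gene over 17 members. The overlapping protein-coding genes with the most reads were MECR at SRSF4 (median of 815.5), GATC at SRSF9 (497) and MFSD11 at SRSF2 (468), and a read that touched both genes was counted for neither.

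Other genes of the splicing machinery, taken from lists of known complexes, did not all move the same way with cercosporamide. The lists, like the members, were chosen with earlier results of these data known. Their counts stand beside the 15.8% of all genes that rose and the 12.6% that fell. Of 15 SR-related proteins tested, 10 rose and none fell, including PNN (1.98 ± 0.36), a component of nuclear speckles, and U2SURP (1.58 ± 0.25), which belongs to the U2 snRNP. Of 8 kinases that phosphorylate SR proteins or related factors, 4 rose and none fell, with CLK4 at 1.47 ± 0.47 and CLK1 at 1.19 ± 0.34, neither of them called without replicate 2 (1.00 and 0.81). Of 25 other RNA-binding regulators of splicing, 11 rose and none fell, with MATR3 at 1.37 ± 0.24 and FUBP3 at 1.32 ± 0.38.

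Proteins of the spliceosome core passed in both directions. Of 12 Sm and U1 or U2 snRNP proteins 1 rose and 4 fell, among them SNRPG (−1.06 ± 0.26) and SNRPF (−0.91 ± 0.25), both subunits of the Sm ring. Of 13 SF3 and U2AF proteins 1 rose and 2 fell, with SF3B1 at 1.43 ± 0.24 and SF3B5 at −0.69 ± 0.25, the last not called without replicate 1 or 2. The shares that fell in this list and the next were near that of all genes. Of 18 tri-snRNP and Prp19 complex proteins 5 rose and 3 fell, led by CDC5L (1.87 ± 0.27) and CRNKL1 (1.27 ± 0.29). In the exon junction complex 1 of 5 rose, RBM8A (0.63 ± 0.28, adjusted p = 0.134). That call was lost in most alternatives, among them DESeq2, the fit without the shallow library (0.31) and the fit without replicate 4 (0.16). The medians were 0.91, 0.51 and 0.29 for the first 3 lists and −0.20, −0.10, 0.06 and 0.38 for the next 4. With the GC trend removed, where 8.93% of all genes rose, the SR protein kinases had no call and the SR-related proteins 7 rises.

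Of the kinases and the cap-binding protein at the centre of the study, MKNK2 fell in translational efficiency with cercosporamide (−1.14 ± 0.49, adjusted p = 0.113), EIF4E rose (0.90 ± 0.24, adjusted p = 0.012) and MKNK1 did not pass (−0.39 ± 0.29). The call of MKNK2 was lost without the replicate block, without the shallow library and without replicate 1, 2 or 4, with a value of −0.60 (adjusted p = 0.58) without replicate 2. With the GC trend removed none of the 3 was called. No gene of these 8 lists passed the test for translational efficiency with CID661578.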

How the data were processed

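Total cytosolic and polysome-associated RNA of the same PANC-1 plates was sequenced as Smart-seq2 paired-end libraries (3 treatments, 4 replicates, 2 fractions). The authors removed adapters and rRNA reads with BBDuk, used HISAT2 for alignment (build hg38) and featureCounts for counting over RefSeq genes, and the deposited values are raw counts. Strand was not used, reads with several alignments were counted at each, and reads over several genes were left out, which can add reads of near-identical copies to a gene. Per the labels, reads were handled with bcl2fastq 2.20.0.422 and FastQC 0.11.8.

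Genes with no count of 0 in any of the 24 libraries were tested with edgeR 4.0.16 (R 4.3.3, limma 3.58.1; quasi-likelihood test, TMM scaling, Benjamini-Hochberg adjustment over 12058 genes). The translational efficiency fit held a term for each of the 12 plates, replicate terms by fraction and treatment terms in the polysome fraction, which left 6 residual degrees of freedom. Fits within a fraction held replicate and treatment, also with 6. Calls used the thresholds of the study, an adjusted p below 0.15 and, for ratios, more than 1.2-fold. The study itself used anota2seq, which sets limits on slopes and separates changes in translation from buffering. That method was not run here, so its calls can differ from these. Replicates came from separate plates. The replicate number, which the study treats as a batch, was kept in every main model. Same-numbered libraries deviated together at r above 0.1 in 13 of 16 comparisons (−0.01 to 0.56). Counting intervals are not given, since reads without molecular identifiers are not independent molecules.

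The members and lists were chosen with earlier results of these data known. Genes were named by rule. These were HNRNPA1, SFPQ, NONO and PTBP1 always, up to 4 called members with the largest rise or fall for each translational efficiency comparison, up to 3 in each fraction, the 3 highest and 3 lowest ratios in DMSO, and up to 2 called genes per list. Other names were added after their values were seen. Alternatives were DESeq2 1.42.0, its size factors in edgeR, scaling within each fraction or without mitochondrial genes, 2 other filters, an adjusted p below 0.05, removal of a GC trend (lowess span 0.3), no replicate block, and leaving out the shallow library or each replicate. The fits were tested on simulated data. Transcript features came from GENCODE v44 and promoters from RefSeq.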

Additional observations from a re-analysis of the deposited data

Results flagged for a closer look

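The change in translational efficiency differed between CID661578 (40 µM) and cercosporamide (5 µM) by the test of the difference itself for 10 mRNAs. The differences, CID661578 minus cercosporamide on the log2 scale, were −1.87 for HNRNPH2, −1.17 for HNRNPR, −0.92 for HNRNPDL, −0.91 for HNRNPM, −0.84 for HNRNPH3, −0.84 for SYNCRIP, −0.72 for HNRNPA2B1, −0.68 for HNRNPH1, −0.65 for SFPQ and −0.65 for HNRNPU. The call of SFPQ was lost in 9 alternative fits and also at an adjusted p below 0.05. Without replicate 3 the SFPQ difference was −0.36 (adjusted p = 0.49). The calls of HNRNPH2 and HNRNPDL were lost without replicate 2, and that of HNRNPM without replicate 1 or 3. The doses differ, so that compound and dose cannot be told apart. The study also found that cercosporamide inhibited kinases other than MNK2.

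Of 45 groups of 4 log2 polysome to total ratios examined, 3 held a replicate that stood apart from the others by Dixon's criterion, where chance gives about 1 group in 20. These were HNRNPUL2 with cercosporamide in replicate 4 (0.74, resting on 4 polysome reads), SYNCRIP with DMSO in replicate 2 (0.021) and SYNCRIP with CID661578 in replicate 3 (1.41).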

How the results depend on the processing

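Over the alternatives run, 8 of the 19 rises in translational efficiency with cercosporamide were called every time (HNRNPH1, HNRNPH2, HNRNPH3, HNRNPM, HNRNPR, HNRNPU, SFPQ and SYNCRIP), and 12 in every fit that left out libraries. The number called with cercosporamide fell to 10 with the GC trend removed, where HNRNPA3 (−0.094) and PTBP3 (−0.090) turned below 0 and PTBP1 stood at 0.0100. Depth limits HNRNPH2, HNRNPLL, HNRNPUL1, HNRNPUL2, SRSF8, SRSF9 and PTBP1, whose polysome counts were 23 or fewer in the shallow library. The causes of the changes below were not tested.

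Counts of members called moved as follows. The 10 differences between the compounds became 6 with no filter, 6 without the shallow library, 5 at an adjusted p below 0.05 and 2 to 8 without single replicates. The 22 calls in polysome RNA with cercosporamide became 14 with no filter, 11 with the GC trend removed, 14 at an adjusted p below 0.05 and 11 to 23 without single replicates. Polysome RNA with CID661578 had 1 call with DESeq2 and 1 without the shallow library, and total RNA with cercosporamide had 1 with the GC trend removed. Without single replicates, translational efficiency with CID661578 had 0 to 1 calls and the DMSO ratio 18 to 26.

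Without the replicate block the 22 polysome calls became 8, the 10 differences 7, the 19 rises 18 and the 28 DMSO calls 25, and PTBP1 in total RNA stood at 0.0998 with CID661578 and 0.044 with cercosporamide. Of the 16 same-numbered comparisons, 12 correlated best with their own number.

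Estimates near 0 changed sign. HNRNPA1 in translational efficiency with CID661578 stood at −0.0018 with DESeq2, −0.001858 with its size factors, −0.027 without mitochondrial genes, −0.024 with no filter, −0.18 with the GC trend removed and −0.001155 without the shallow library. The DMSO ratio of NONO was 0.22 with scaling within each fraction, 0.023 without mitochondrial genes, 0.034 with filterByExpr, 0.069 with no filter and 0.022 without the shallow library. That of HNRNPDL was 0.029 with DESeq2, 0.028 with its size factors, 0.27 within each fraction, 0.072 without mitochondrial genes, 0.082 with filterByExpr, 0.12 with no filter, 0.073 with the GC trend removed and 0.070 without the shallow library. HNRNPA1 in total RNA with cercosporamide was 0.0028 with the GC trend removed.

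Without single replicates, translational efficiency ranged from −0.24 to 0.090 for HNRNPA1 and −1.03 to 0.31 for PTBP1 with CID661578, from −1.06 to 0.19 for PTBP1 with cercosporamide and from −0.44 to 0.12 for its difference between compounds. The DMSO ratio ranged from −0.18 to 0.049 for NONO and −0.053 to 0.28 for HNRNPDL. Total RNA ranged from −0.20 to 0.21 for HNRNPA1 and −0.61 to 0.20 for PTBP1 with CID661578, and from −0.19 to 0.016 for NONO and −0.78 to 0.045 for PTBP1 with cercosporamide. Polysome RNA ranged from −0.14 to 0.034 for HNRNPA1 with CID661578 and from −0.061 to 0.39 for NONO with cercosporamide.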
